A study of Mus musculus with 9 samples.

Results

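Of 9 arrays of D3-pOct4 mouse embryonic stem cells, 3 had a Socs3 signal of 1000 or more and are described here against the background of all 9. The arrays were chosen by their own Socs3 signal, read from the Socs3 probe set with the highest mean, whatever treatment the labels gave. They are LIF replicate 1, no LIF replicate 2 and LIF replicate 3, at 3213, 3054 and 1794. The other 6 lay between 95.8 on DETA/NO replicate 1 and 405 on DETA/NO replicate 2, so the values just inside and just outside the limit were 1794 and 405. Because a measured signal picked these arrays across the labels, they are not a treatment group. No mean was taken over them and no fold or p-value set them against the rest. Each gene is instead described by its signals array by array, and tests were made only between the groups as labelled.

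Every culture was kept for 7 days in medium with fetal bovine serum. One group of 3 arrays had 1000 U/ml leukemia inhibitory factor (LIF), a second had no LIF, and the last had no LIF with 2 µM DETA/NO, a donor that releases nitric oxide slowly. Replicates 1, 2 and 3 of each group carry passages 31, 33 and 34. The arrays of a group thus differ in passage, but the labels do not say how far the cultures were separate. The p-values cover only the spread among these arrays. Signals are linear probe set intensities scaled alike on every array by the authors.

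LIF binds its receptor and the shared subunit gp130, which activates JAK kinases and the transcription factor STAT3. In mouse embryonic stem cells STAT3 sustains naive pluripotency through targets such as Klf4 and Tfcp2l1, and it induces Socs3, which binds the receptor complex and dampens the signal. Cells that leave the naive state pass through a formative and primed epiblast state marked by Fgf5 and Dnmt3b, and mixed cultures can also hold extraembryonic endoderm cells, which secrete basement membrane.

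STAT proteins bind the palindrome TTCNNNGAA, and the promoter of the selecting gene is shown because it holds this motif. Promoter windows were taken from RefSeq on GRCm38.p6, from 250 bases before to 50 after the annotated start. In the Socs3 window, chr11:117969317-117969616 on the minus strand, 1 match began 154 bases before the start. Capitals mark the match in each sequence, 5′ to 3′. Icam1 (chr9:21015873-21015931, plus strand) and Emp1 (chr6:135362786-135362844, plus strand) are shown as 2 other described genes that were highest on the same 3 arrays and hold the motif. Among the named genes read for it, Sema3e, lowest on the 3 arrays, and Esrrb and Otx2, which overlapped, hold it as well. That reading left out a chromosome, so other named genes may hold it too.
Socs3: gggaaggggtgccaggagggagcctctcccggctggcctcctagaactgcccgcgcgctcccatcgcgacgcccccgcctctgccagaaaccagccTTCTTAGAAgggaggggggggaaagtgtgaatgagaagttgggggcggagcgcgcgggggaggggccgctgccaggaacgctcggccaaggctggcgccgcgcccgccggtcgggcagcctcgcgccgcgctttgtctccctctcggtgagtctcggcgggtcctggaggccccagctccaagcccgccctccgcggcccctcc
Icam1: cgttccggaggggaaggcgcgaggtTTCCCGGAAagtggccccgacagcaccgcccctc
Emp1: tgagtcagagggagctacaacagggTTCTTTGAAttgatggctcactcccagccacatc
The first match in these windows began 42 bases before the start in Icam1 and 120 bases before it in Emp1, whose window holds 2 matches. The motif, which reads the same on both strands, was found in 866 of 10794 genes tested that have a window (8.02%) and in 8.3% of all 32851 windows. It was found in 40 of the 456 other genes with a window that were highest on the 3 arrays (8.77%), in 42 of the 505 genes lowest there (8.32%) and in 3 of 15 genes of the LIF/STAT3 response list (20%). The share of windows with these letters in the sets of highest and lowest genes was thus close to the background. A match is a description of the letters, not of binding.

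Array quality measures of the 3 arrays overlapped those of the other 6. Their median signals were 23.3, 15.9 and 17.8, within the 13.9 to 22.4 of the other 6 apart from LIF replicate 1. The 3′ to 5′ ratio of beta-actin was 1.9 to 2.19 against 1.52 to 3.15, and that of Gapdh 0.812 to 0.844 against 0.823 to 0.955. The Dap labelling spike was 393 to 2422 against 250.1 to 1368. Over all 29811 tested probe sets, no LIF replicate 2 and LIF replicate 3 correlated best with each other (r = 0.946). LIF replicate 1 correlated best with DETA/NO replicate 1 (r = 0.921), an array outside the 3. Among the other 6, no LIF replicate 1 and DETA/NO replicate 3 were the most alike pair (r = 0.977), although they carry different labels and passages. Stem cell markers were bright on all 9 arrays, with Pou5f1 at 958 to 3211 and Sox2 at 1510 to 3866.

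Socs3 itself is the selector and not a result. Its 2 other probe sets read 1157, 1293 and 848, and 1710, 1951 and 889, on LIF replicate 1, no LIF replicate 2 and LIF replicate 3. On the other 6 arrays they read 30.2 to 120.3 and 66.9 to 265. Both kept the same 3 arrays on top, but with either of them the limit of 1000 would have picked 2 arrays and left LIF replicate 3 out.

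Across the genome, 587 of 13376 genes, Socs3 among them, had their 3 highest signals on these arrays (4.39%), and 630 had their 3 lowest there (4.71%). The gap is the distance, on the log2(signal + 3) scale, between the 3 arrays and the nearest of the other 6. It reached at least 1 for 31 and 79 of them. These counts follow from the choice of arrays and carry no test; they are the background for the members of each list below. Within the 3 arrays the order was uneven. Of the 586 genes other than Socs3 that were highest there, LIF replicate 1 was the very highest for 278, no LIF replicate 2 for 194 and LIF replicate 3 for 114. LIF replicate 3 was the one next to the gap for 300 of these 586 and for 362 of the 630 lowest genes. On the far side, DETA/NO replicate 1 was the nearest for 199 and 232. Without LIF replicate 3 the counts were 1178 and 1311, and without DETA/NO replicate 1 they were 892 and 1152. Without any other single array they were within 1.5 times the values given.

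Of 20 LIF/STAT3 response genes tested, 8 were highest on the 3 arrays and 0 were lowest, against 4.39% and 4.71% of all genes. This list and those below were drawn up with earlier results of these data known, so such a contrast is no independent evidence. Of the 8 response genes highest on the 3 arrays, Klf5, Icam1, Tfcp2l1 and Pfkp lost the order under quantile normalization or median centring. Bcl3, a nuclear cofactor of NF-kappa B, had the widest gap of the list. It read 309.7 on LIF replicate 1, 277 on no LIF replicate 2 and 306 on LIF replicate 3. On the other arrays it read 82.4 on LIF replicate 2, 31.8 and 47.3 on no LIF replicates 1 and 3, and 49.3, 75.2 and 33.5 on DETA/NO replicates 1 to 3. The 3 arrays were close together and well clear of the other 6, including LIF replicate 2. Tgm2, a protein cross-linking transglutaminase, read 1398, 1641 and 442 on the 3 and 35.8 to 199 elsewhere. LIF replicate 3 was the lowest of the 3, yet above every other array, and all 4 other probe sets of Tgm2 kept that order.

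The naive factors of the same list were parted by less. Klf4, a zinc finger activator of naive genes, read 2482 and 1863 on LIF replicates 1 and 3 and 2542 on no LIF replicate 2. It read 1062 on LIF replicate 2, 197 and 698 on no LIF replicates 1 and 3, and 1368, 625 and 233 on DETA/NO replicates 1 to 3. DETA/NO replicate 1 thus came nearest, with a gap of 0.44, and no LIF replicate 1 and DETA/NO replicate 3 were far below. Tfcp2l1, a direct STAT3 target, read 901, 1175 and 1126 against 119 to 697, with a gap of 0.37 that turned to -0.18 after median centring. Klf5, its partner in self-renewal, read 3840, 2935 and 3245 against 1098 to 2495, with a gap of 0.23. After quantile normalization the Klf5 gap was -0.16, and neither of its 2 other probe sets kept the order. Icam1, an adhesion molecule, read 3652, 2649 and 1605 against 133 to 1430, a gap of 0.17 that was -0.07 after quantile normalization. Pfkp, a phosphofructokinase of glycolysis, and Junb, an AP-1 subunit, were also highest on the 3, by gaps of 0.05 and 0.17. The Pfkp gap was -0.46 after median centring.

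**Figure D1:**
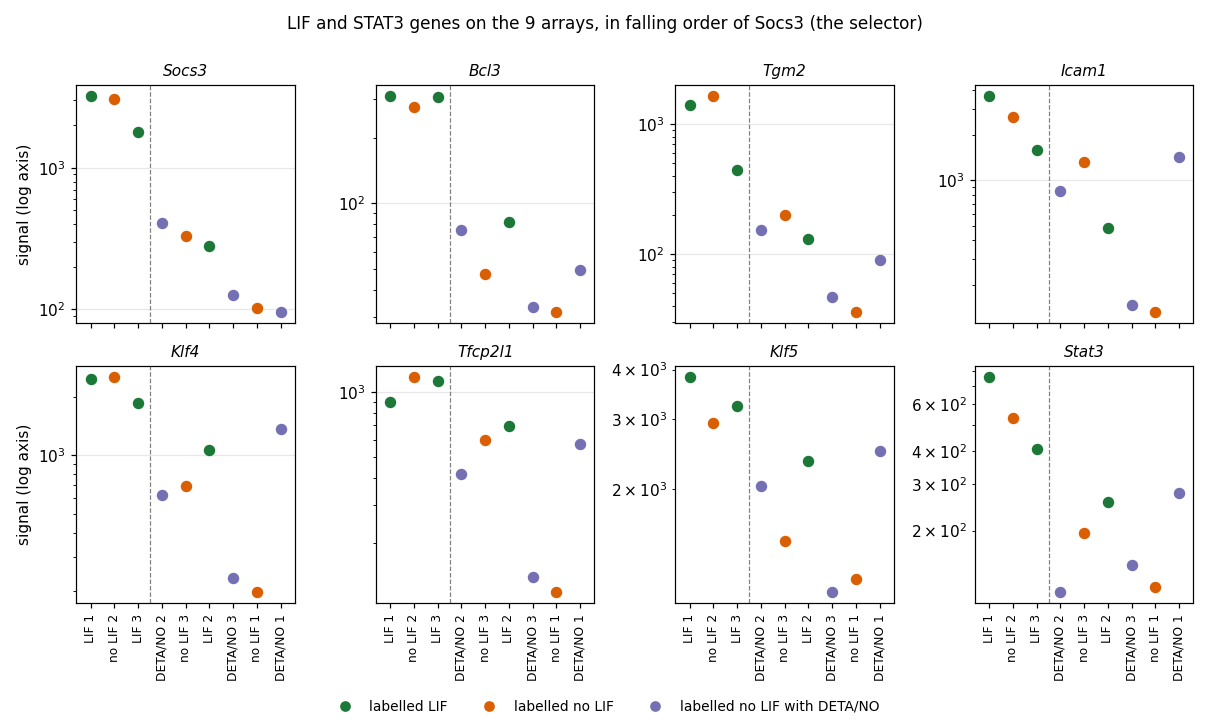
Signals of 8 LIF and STAT3 genes (log axis) on each of the 9 arrays, placed from left to right in falling order of Socs3; 1 point is 1 array, coloured by its label, and the dashed line marks the Socs3 limit. Bcl3 reads 277 to 309.7 left of the line and 31.8 to 82.4 right of it, while Klf5 and Icam1 nearly meet across it.

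The remaining 12 response genes overlapped. Pim1, a survival kinase, read 165 to 489 on the 3 arrays and 290.3 to 788 on the other 6. Its relative Pim3 read 1022 to 1682 against 561 to 1202. Myc, a growth regulator, read 50 and 55.3 on LIF replicate 1 and no LIF replicate 2, 228 on LIF replicate 3, and 55.4 to 293 elsewhere. Egr1, an immediate early gene singled out after its values were seen, read 399.7, 138 and 94.5 against 67.9 to 465. A side named for STAT3 activity would hold only in part for these genes, and STAT3 phosphorylation was not measured, so the arrays are named by Socs3 alone.

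Components of the pathway itself mostly overlapped, as did 12159 of the 13376 genes tested. Of 14 tested receptor and JAK-STAT genes, 1 was highest and 1 lowest on the 3 arrays, against 4.39% and 4.71% of all genes. The counts of this list and of the inhibitors below were near that background. Stat3 read 761, 530.0 and 407 on LIF replicate 1, no LIF replicate 2 and LIF replicate 3. It read 256 on LIF replicate 2, 123 and 196 on no LIF replicates 1 and 3, and 278, 117 and 149 on DETA/NO replicates 1 to 3, a gap of 0.55. Of the 3 other Stat3 probe sets, 1 kept that order. Jak2, a kinase of cytokine receptors, was lowest on the 3, at 31.8 to 50.3 against 56.7 to 89; its gap of 0.16 was -0.03 after median centring, and its 1 other probe set did not keep the order. Of 14 inhibitors of the pathway other than Socs3, only the phosphatase Ptpn6 was parted, at 156 to 239 against 83.4 to 140.3, and that gap of 0.15 was -0.28 after median centring. Its 1 other probe set did not keep the order.

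Of 17 naive genes 2 were highest on the 3 arrays and 0 lowest, against 4.39% and 4.71% of all genes. Tcl1, an activator of the kinase AKT, read 516, 505 and 375 against 50.2 to 258. Fbxo15, an F-box protein of stem cells, read 1238, 1486 and 1190 against 348 to 990.0. Esrrb, a nuclear receptor of the naive network, missed the order by little, at 736 to 1366 against 169 to 752, the highest of the 6 being DETA/NO replicate 1. After median centring Esrrb met the order, by a gap of 0.15, and 1 of its 2 other probe sets parted the arrays, by 0.33. Tbx3, a naive and endoderm factor, read 1758 on LIF replicate 1 and 723 on DETA/NO replicate 1, above the 604 and 462 of the other 2 chosen arrays. Both of the other Tbx3 probe sets parted the 3 arrays from the other 6, by gaps of 0.17 and 0.25. Zfp42, which encodes the marker Rex1, read 1181 to 2187 against 946 to 2014.

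Of 7 core pluripotency genes 1 was highest on the 3 arrays, against 4.39% of all genes. It was Tdgf1, a Nodal co-receptor, at 4185, 5672 and 5499 against 1441 to 3180, and median centring brought its gap of 0.40 to -0.25. Pou5f1, the Oct4 gene, overlapped at 1711 to 2562 against 958 to 3211. Nanog read 539 to 1340 against 271 to 962, and Sox2 2364 to 3866 against 1510 to 2486. The highest Pou5f1 signals of all, 3211 and 3044, were on no LIF replicate 1 and DETA/NO replicate 3, the alike pair.

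Of 20 formative and primed epiblast genes tested, 8 were lowest on the 3 arrays and 1 was highest, against 4.71% and 4.39% of all genes. Fgf5, a growth factor of the primed epiblast, was one of the 8. It read 0.888 and 0.71 on LIF replicates 1 and 3 and 0.576 on no LIF replicate 2. It read 56.6 on LIF replicate 2, 521 and 19.1 on no LIF replicates 1 and 3, and 44.1, 82.6 and 567 on DETA/NO replicates 1 to 3. The 3 values are far under the array medians of 13.9 to 23.3 and have no reliable order among themselves. The size of its gap was therefore set by the pseudocount, at 2.51 with 3, 3.41 with 1 and 1.06 with 16.

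Other epiblast genes spread more evenly. Dnmt3b, a de novo DNA methyltransferase, read 255 on LIF replicate 1, 570.2 on no LIF replicate 2 and 1099 on LIF replicate 3. It read 1212, 3570 and 3659 on DETA/NO replicates 1 to 3, 4360 and 1915 on no LIF replicates 1 and 3, and 2062 on LIF replicate 2. The gap was 0.14, became -0.15 after median centring, and was not kept by the 1 other probe set. Lefty1, a Nodal inhibitor, read 141 to 289 against 558 to 2018, and Sox4, a transcription factor, 286 to 402 against 593 to 1409, the latter in 3 of 5 other probe sets too. Etv4, an ERK-responsive factor, went the other way at 279.7 to 517 against 102 to 222, though not after median centring (gap -0.18). Otx2, a driver of the formative state, overlapped at 77.5 to 217 against 199 to 626, though after median centring it was lowest on the 3 by a gap of 0.07.

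Of 17 streak and mesendoderm genes, 3 were lowest on the 3 arrays and 0 highest, against 4.71% and 4.39% of all genes. Sp5, a WNT target, read 0.962 to 2.96 against 10.5 to 162, and Fgf8, a growth factor of the streak, 0.757 to 11.4 against 36.8 to 234. Wnt3 read 0.0968 to 0.527 against 6.52 to 29.5, a dim signal on every array. DETA/NO replicate 1 and no LIF replicate 3 had the lowest Sp5 and Fgf8 signals of the other 6, and no LIF replicate 1 and DETA/NO replicate 3 were among the highest. Sp5 read 10.5 on DETA/NO replicate 1 and 13.2 on no LIF replicate 3, under the medians of those arrays (22.4 and 15.6). Its gap was 1.18 with a pseudocount of 3, 1.54 with 1 and 0.48 with 16.

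Of 19 primitive and parietal endoderm genes tested, 8 were highest on the 3 arrays and 0 lowest, against 4.39% and 4.71% of all genes. Lama1, the laminin alpha chain of embryonic basement membrane, read 1311 on LIF replicate 1, 1108 on no LIF replicate 2 and 2976 on LIF replicate 3. It read 164 on LIF replicate 2, 85.4 and 343 on no LIF replicates 1 and 3, and 368, 141 and 78.2 on DETA/NO replicates 1 to 3. Amn, a partner of the endocytic receptor cubilin, read 260.0, 232 and 466 against 29.4 to 103. Gata6, a factor that specifies primitive endoderm, read 129, 108 and 439 against 32.9 to 64.4, with a gap of 0.72 that its 1 other probe set kept in order. For each of these 3 genes LIF replicate 3 was the highest array of all.

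A pair of matrix genes of this list came nearer to an overlap. Nid1, which links laminin to collagen, read 1787, 1555 and 1838 against 60.4 to 1188, and Lamc1, a laminin gamma chain, 1385, 1004 and 1723 against 222 to 821. Of the other 6 arrays DETA/NO replicate 1 was the highest for both. The order was kept by 1 of 2 other Nid1 probe sets and by 0 of 1 for Lamc1. Sox17, an endoderm factor, read 66.6, 68.1 and 192 against 21.8 to 59.8, a gap of 0.15 that was -0.30 after quantile normalization and -0.45 after median centring. The summed signal of the 19 endoderm genes was 13155, 11223 and 25692 on LIF replicate 1, no LIF replicate 2 and LIF replicate 3, and 3792 to 11906 on the other 6, so the sums overlap. In bulk cultures a larger share of such cells and more RNA per cell cannot be told apart. The part of these cells in the other gene orders was not tested.

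**Figure D2:**
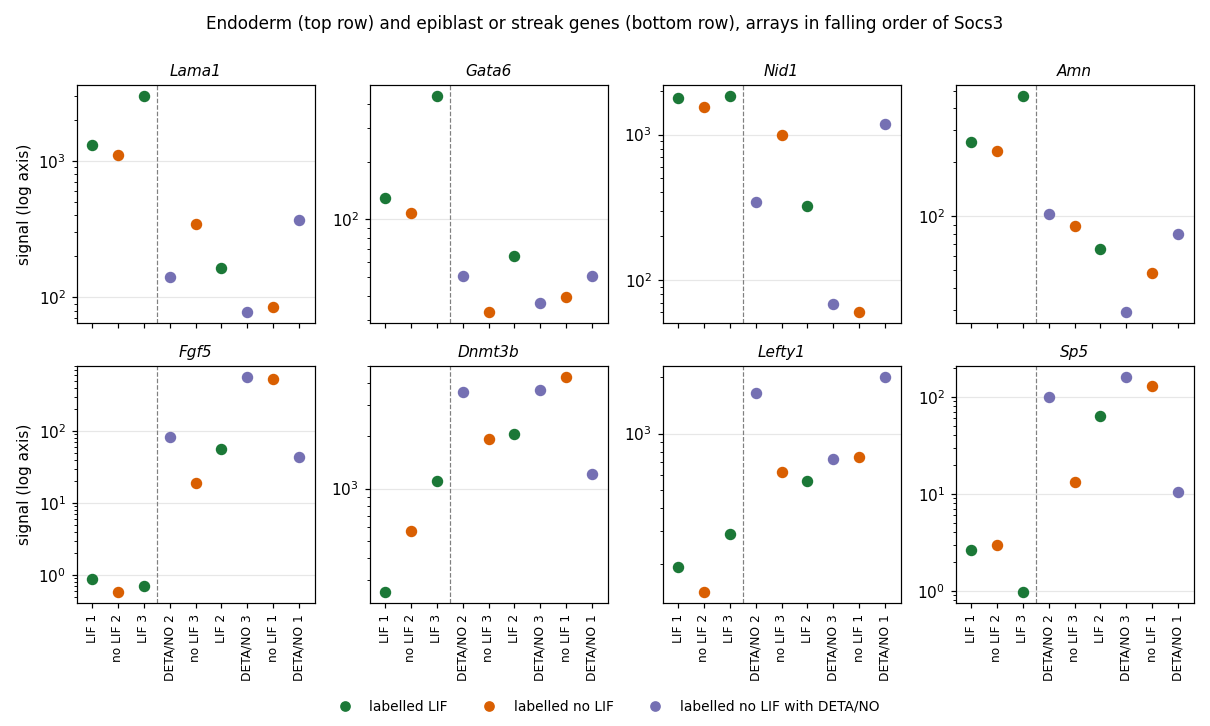
Signals (log axis) of 4 endoderm genes, top, and 4 epiblast or streak genes, bottom, on each array in falling order of Socs3; 1 point is 1 array, coloured by its label, and the dashed line marks the Socs3 limit. Lama1, Gata6 and Amn peak on LIF replicate 3, and Fgf5 stays under 1 on the 3 arrays left of the line.

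Markers of other cell types were read for the same arrays. Over all genes 4.39% were highest and 4.71% lowest there, so 1 parted gene of 10 or 11 is close to that background. Trophoblast and simple epithelial genes summed to 1025, 1249 and 6293 on LIF replicate 1, no LIF replicate 2 and LIF replicate 3 and to 3990 to 15326 elsewhere; 1 of 11 was parted, the keratin Krt19, lowest at 81.4 to 289.5 against 318 to 1485. The Krt19 gap of 0.14 was -0.15 after median centring. Cardiac and smooth muscle genes summed to 241 to 750.3 against 826 to 2045, with 3 of 10 lowest on the 3. Tagln, an actin-binding protein of smooth muscle, read 11.2, 17.8 and 206 against 321 to 1087. Fibroblast genes summed to 6531 to 8033 against 3353 to 6580, with 1 of 10 highest, the surface protein Thy1 at 84.7 to 94.5 against 24 to 50.1. The brightest of this list was Fn1, which overlapped at 4653 to 6635 against 1216 to 5730. The collagens Col1a1 and Col1a2 were dim and overlapped, at 8.15 to 18 against 2.73 to 25.5 and 5.83 to 24.6 against 9.63 to 27.4. Neuroectoderm genes summed to 188 to 394 against 207 to 355, with 2 of 8 lowest. Of these 2, Nes lost the order under quantile normalization (gap -0.21), median centring (gap -0.26) and in its 1 other probe set. Map2 was dim, at 7.28 to 12.9 against 16.3 to 29.2, and neither of its 2 other probe sets kept the order. Endothelial and blood genes summed to 256 to 418 against 145 to 349, with 3 of 7 highest, on signals of at most 42. Of these 3, Gata1 lost the order under quantile normalization (gap -0.38) and median centring (gap -0.37). Of the 12 endothelial and blood genes listed, 7 passed the filter on low signals. The 3 chosen arrays alone can satisfy that filter, so dim genes highest there were favoured. The part of these cell types in the gene orders was not tested.

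Of 11 ERK feedback genes 3 were lowest, among them Dusp1 by a gap near 0, the phosphatase Dusp5 at 13.3 to 29 against 82.5 to 135 and its relative Dusp4 at 24.4 to 97.2 against 117 to 402. Of 11 BMP and Id genes 2 were highest and 1 lowest. Id1, a BMP-induced inhibitor of differentiation factors, read 763, 705 and 744 against 229.6 to 442, while its relative Id2 read 19.7, 33.9 and 122 against 208 to 660.1, an order that 1 of 2 other Id2 probe sets kept. The 2 Id genes thus had opposite orders. Of 12 apoptosis genes 3 were lowest, including the BH3-only protein gene Bcl2l11 at 354 to 366 against 546 to 836, an order kept by 1 of its 4 other probe sets. The Apaf1 gap of 0.18 was -0.11 after median centring, and its 1 other probe set did not keep the order. Bcl2 read 0.874 to 4.47 against 14.3 to 27.4, and none of its 3 other probe sets kept the order. Over all genes 4.39% were highest and 4.71% lowest.

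Of 11 nitric oxide and cGMP genes 2 were highest and 2 lowest. Nos3, the endothelial nitric oxide synthase, read 223, 216 and 93.8 against 27.9 to 81.1, with DETA/NO replicate 1 the highest of the 6. Pde5a, a phosphodiesterase that degrades cGMP, read 10.2, 8.81 and 27.2 against 46.4 to 92.6. The other 2 were Nos1, highest by a gap of 0.09, and Pde2a, lowest by a gap of 0.08. Neither of the 2 other Nos1 probe sets kept the order. The Pde2a gap was -0.09 after quantile normalization and -0.34 after median centring, and 1 of its 2 other probe sets kept the order. Of 19 hypoxia and glycolysis genes 2 were highest, including Vegfa, an angiogenic factor, at 214 to 284 against 44.3 to 206, though not after median centring (gap -0.26). Cell cycle genes had 1 highest and 1 lowest of 20, near the background of 4.39% and 4.71%. The highest was the cyclin Ccnd3 at 1348 to 2050 against 371 to 1187, and its gap of 0.18 was -0.32 after median centring. Neither of its 2 other probe sets kept the order.

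**Figure D3:**
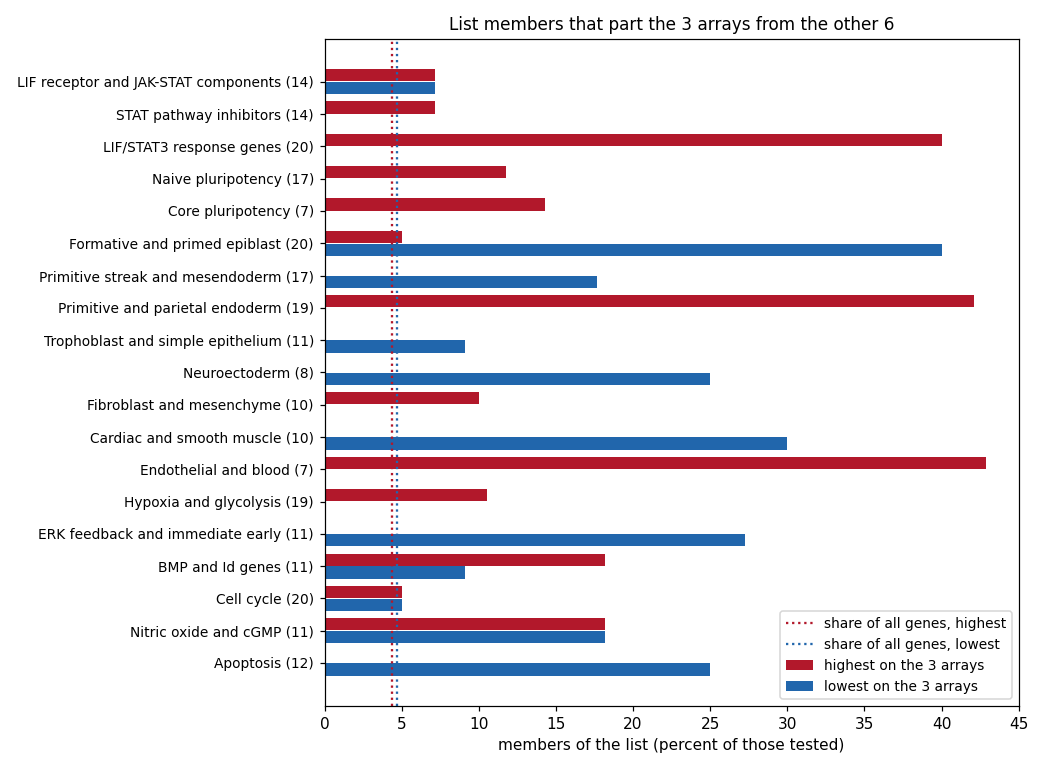
Percent of the tested members of each list (number in brackets) that were highest or lowest on the 3 arrays, with dotted lines at the 4.39% and 4.71% of all genes. The longest bars are those of endothelial and blood (3 of 7), endoderm (8 of 19), LIF/STAT3 response (8 of 20) and epiblast genes (8 of 20). The lists were drawn up with earlier results of these data known, and the filter on low signals favours dim genes highest on the 3 arrays.

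Beyond the lists, the 12 bright genes with the widest gap in each direction were read, leaving out Socs3. Bright means a mean signal of at least 100 over all 9 arrays. A gene can reach that mean only through the side where it is high, as Igsf21 and Myb did. Among the high ones Igsf21, an immunoglobulin superfamily protein, had a gap of 1.86. It read 777, 514 and 211 on LIF replicate 1, no LIF replicate 2 and LIF replicate 3, and 4.62 to 55.8 on the other 6. Jam2, a junctional adhesion molecule, read 1186, 1302 and 1383 against 66.9 to 346, and all 4 of its other probe sets kept the order. Scd1, a fatty acid desaturase, read 2214, 1625 and 1396 against 157 to 428. Kdelr3, which returns proteins to the endoplasmic reticulum, read 1553, 1232 and 874 against 25.4 to 317. Emp1, a membrane protein, read 621, 488 and 242 against 2.25 to 88.1. The others were Bcl3, Mras, Lama1, Fgfr3, Amn, Tgm2 and Timp1, with gaps from 1.09 for the protease inhibitor Timp1 to 1.71 for Bcl3. The 1 other probe set of Mras did not keep the order.

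Esrp1, an epithelial splicing regulator, was one of the low genes, at 2.39, 9.81 and 38.9 against 203 to 425. Grhl2, a transcription factor of epithelia, read 32.9, 27.6 and 47.3 against 156 to 237, but neither of its 2 other probe sets kept the order. Prom1, a membrane glycoprotein, read 52.6, 37.8 and 58.7 against 228 to 485. The guidance ligands Sema3e and Efnb2 read 21.5 to 29.1 against 145 to 351, and 23.5 to 69.4 against 287 to 515. Myb, a transcription factor of progenitor cells, read 13.7, 19.9 and 9.34 against 104 to 189.9, an order kept by both of its other probe sets. Ccn1, a matricellular YAP target, read 47.2, 25.5 and 171 against 629 to 1624. Stx3, a syntaxin, read 237, 232 and 321 against 1098 to 1749. With Fgf5, Fndc3c1, Kcnk1 and St6gal1 these made 12, with gaps from 1.66 for Grhl2 to 2.30 for Esrp1 apart from Fgf5. The order was kept by 1 of 3 other probe sets for Efnb2, 1 of 3 for Ccn1 and 0 of 1 for St6gal1.

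**Figure D4:**
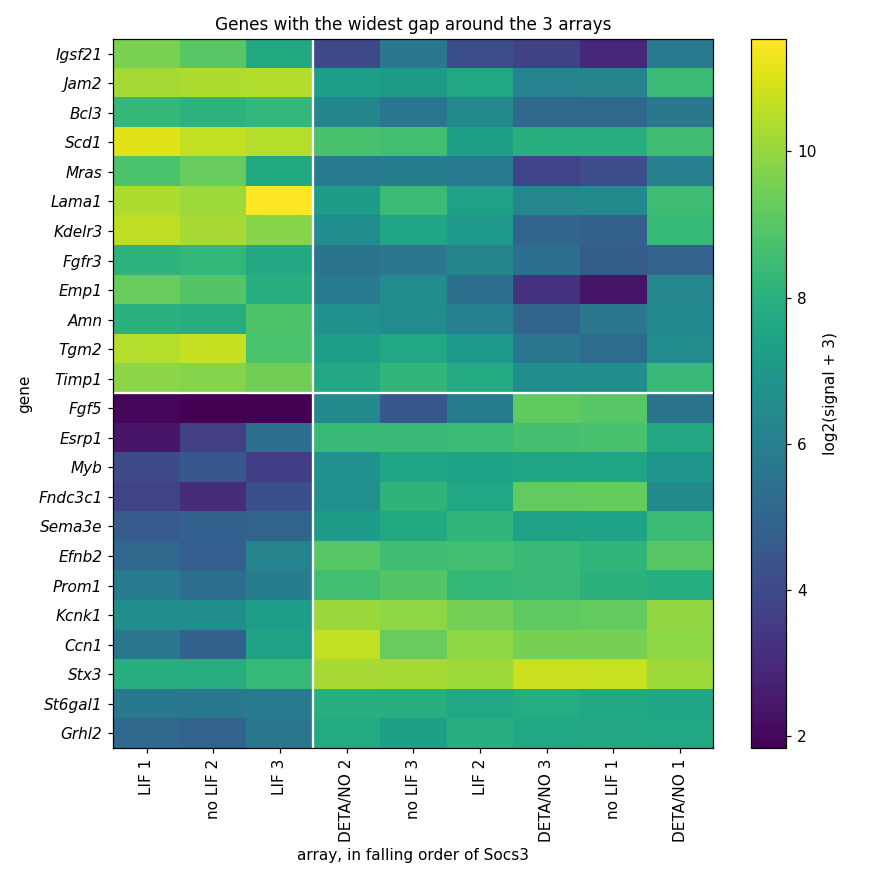
Log2(signal + 3) of the 12 high and 12 low genes with the widest gap, one row each, on the 9 arrays in falling order of Socs3. The white lines part the 3 chosen arrays and the 2 sets of genes; by the way the genes were picked, every row changes across the upright line.

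The labels give the only groups that were tested. Limma called 0 of 29811 probe sets without LIF against with LIF (0%), 0 with DETA/NO against no LIF and 0 with DETA/NO against LIF, at an adjusted p of 0.05. At an unadjusted p under 0.05 there were 459, 1498 and 578. For the 12 high genes the log2 difference without LIF against LIF was -1.60 to -0.55 (SE 0.78 to 1.55; smallest limma adjusted p = 0.973), and all 12 were below 0. With DETA/NO against no LIF it was -1.38 to -0.57 (smallest limma adjusted p = 0.93). For the 12 low genes the differences were 0.24 to 1.86 and 0.54 to 2.14 (SE 0.65 to 1.69; smallest limma adjusted p = 0.973 and 0.929). None of these 24 genes passed the test. Since 2 of the 3 chosen arrays are labelled LIF and 0 are labelled DETA/NO, the signs of these differences are partly fixed by the choice of genes.

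The lists were set beside all genes in the same fit. The median log2 difference without LIF against LIF was -0.57 for LIF/STAT3 response genes, -1.02 for endoderm genes and 0.48 for epiblast genes, against 0.01 over all genes tested. With DETA/NO against no LIF the medians were -0.35, -0.19 and 0.48, against -0.02. Some other lists lay as far from 0 as the response and epiblast lists. None lay as far as the endoderm genes without LIF against LIF. Without LIF against LIF the median was -0.63 for BMP and Id genes, 0.63 for muscle genes, -0.49 for trophoblast genes and -0.48 for endothelial and blood genes. With DETA/NO against no LIF it was 0.87 for streak genes, -0.81 for hypoxia and glycolysis genes and 0.60 for neuroectoderm genes. Of the members of these lists 0 passed the test in either comparison. Single genes had wide errors: Bcl3 stood at -1.36 (SE 0.78), Tfcp2l1 at -1.02 (SE 0.76), Lama1 at -1.42 (SE 1.11) and Bmp4, a ligand of the BMP pathway, at -1.79 (SE 0.60) without LIF against LIF, each with limma adjusted p = 0.973. The array labelled no LIF replicate 2 had higher Bcl3, Tfcp2l1 and Lama1 signals than the array labelled LIF replicate 2, the reverse of replicates 1 and 3. That follows for every gene highest on the 3 arrays, since no LIF replicate 2 is one of them and LIF replicate 2 is not.

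**Figure D5:**
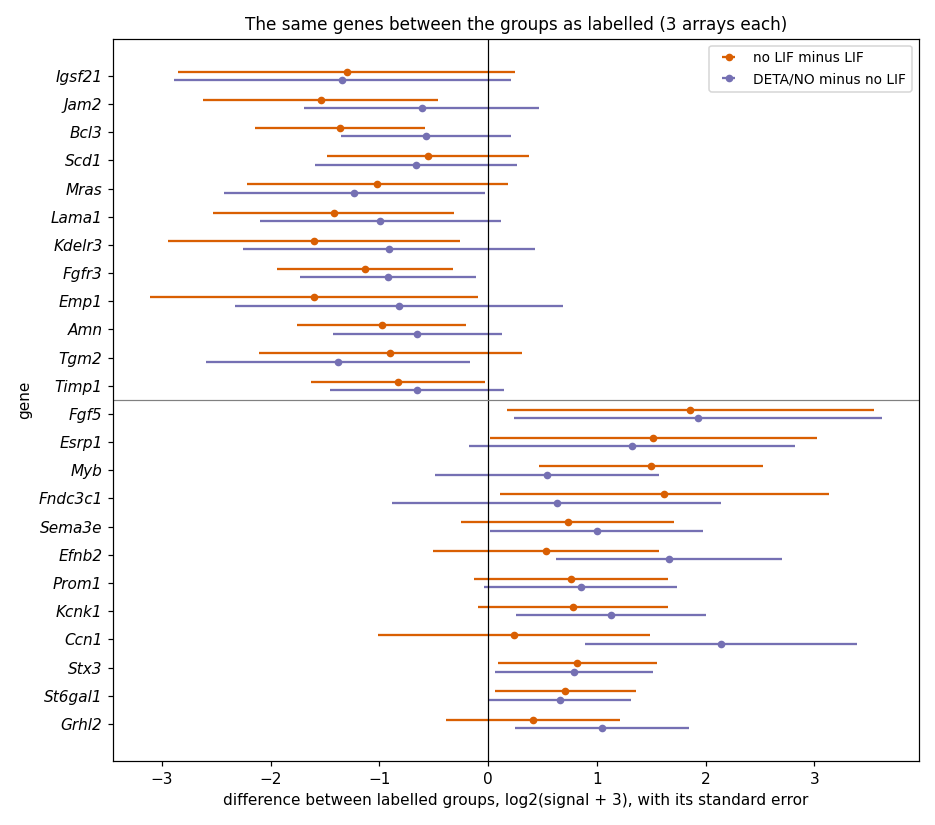
Log2 differences between labelled groups (3 arrays each) for the same 24 genes, with 1 standard error as bars: without LIF against LIF and with DETA/NO against no LIF. The 12 genes at the top lie below 0 and the 12 at the bottom above 0, and none passed the test.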

How the data were processed

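RNA from 9 cultures, 3 per labelled group, was hybridised to Affymetrix 430 2.0 mouse arrays. The deposited values are linear intensities. Per the labels and design text, the authors scaled them globally with GeneChip Operating System 1.4.0.036; MAS5 is the method listed in the submitters' processing notes. No detection calls were used here.

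The members and gene lists were chosen with earlier results of these data known. Probe sets at or above the 40th percentile of their array on at least 3 arrays were kept, leaving out 64 controls, which gave 29811. A dim gene could thus be kept through the 3 chosen arrays alone. Names came from the platform annotation (34945 probe sets with 1 symbol, 932 with several, 9160 with none), checked against RefSeq of GRCm38.p6, where 34741 matched and 0 changed. The probe set with the highest mean signal stood for each of 13376 genes.

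A gene counted as highest or lowest on the 3 arrays when its signals there all lay above, or all below, those of the other 6. This is a description with no test. Arrays picked by a measured signal were not averaged or tested as a group, but these counts, and the ranking by gap, do set them apart from the rest. Labelled groups were compared with limma 3.58.1 in R 4.3.3 (lmFit, eBayes with intensity trend) on log2(signal + 3), two-sided, with Benjamini-Hochberg adjustment across the 29811 probe sets. The fit was run on simulated data with a smaller spread than that of the arrays. That run does not show what size of change could be called here. The replicate number was not used as a block, since deviations of arrays with the same number correlated at -0.6 to 0.65.

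Named genes are a panel of 21, the 12 bright genes (mean signal of at least 100) with the widest gap each way, and up to 4 parted members of each list, or its 2 brightest where none was. Alternatives varied the pseudocount, filter, normalization, probe set and variance trend, fitted fewer groups, added a replicate block, or left out 1 array.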

Additional observations from a re-analysis of the deposited data

How the results depend on the processing

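Limma called 0 probe sets in each labelled comparison under every setting run. The fit with the replicate number as a block also called 0, 0 and 0, and 493, 1602 and 471 probe sets had an unadjusted p under 0.05 there; leaving out 1 array at a time gave 255 to 1753, 486 to 4290 and 258 to 1117. Of the 459 such probe sets without LIF against LIF, 82 were higher and 377 lower; after median centring it was 218 and 197. The counts of genes highest and lowest on the 3 arrays were 532 and 620 after quantile normalization, sharing 439 and 499 genes with the main counts, and 474 and 581 after median centring, sharing 340 and 403. They were 1058 and 1074 over every probe set on its own, which counts more features, and 31 and 79 with a gap of at least 1. Leaving out 1 array gave 603 to 1178 and 661 to 1311; dropping any array makes the order easier to meet. Averaging the 2 most alike arrays, a step chosen after seeing the data, gave 620 and 663. Of 74 named genes that parted the arrays, 67 still did after quantile normalization, 55 after median centring and 74 with a pseudocount of 1 or 16. The gaps that turned negative after quantile normalization were Klf5 -0.16, Icam1 -0.07, Sox17 -0.30, Nes -0.21, Gata1 -0.38, Pgm2 -0.02, Pde2a -0.09. Those after median centring were Tfcp2l1 -0.18, Dnmt3b -0.15, Sox17 -0.45, Jak2 -0.03, Ptpn6 -0.28, Pfkp -0.46, Tdgf1 -0.25, Etv4 -0.18, Krt19 -0.15, Nes -0.26, Gata1 -0.37, Vegfa -0.26, Pgm2 -0.37, Dusp1 -0.33, Bmp4 -0.03, Ccnd3 -0.32, Mki67 -0.13, Pde2a -0.34, Apaf1 -0.11. Of the 74 other probe sets of these genes, 39 kept the order, and the gaps of the rest were Stat3 -1.26 and -0.70, Klf5 -1.14 and -1.02, Dnmt3b -0.09, Mras -0.11, Efnb2 -1.75 and -0.19, Ccn1 -0.85 and -0.54, St6gal1 -0.08, Grhl2 -1.10 and -2.92, Jak2 -0.21, Ptpn6 -0.55, Sox4 -1.05 and -0.56, Nid1 -1.58, Lamc1 -0.22, Nes -0.45, Map2 -0.34 and -0.58, Id2 -1.41, Ccnd3 -0.05 and -0.12, Pde2a -1.78, Nos1 -0.48 and -0.34, Bcl2l11 -0.48, -1.0 and -0.30, Apaf1 -0.24, Bcl2 -1.15, -0.09 and -0.73; the cause was not tested. The number of arrays, 3 in each labelled group, limits the precision, and signals under the array medians have no reliable order.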
